A study of Rattus norvegicus with 2 samples.

Results

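The collagen genes examined here were 10 rat genes chosen by symbol: 5 chains of fibrillar collagen (Col1a1, Col1a2, Col3a1, Col5a1 and Col5a2), 3 chains of the basement membrane (Col4a1, Col4a2 and Col18a1) and 2 chains of type VI collagen (Col6a1 and Col6a2). A gene was found when its NCBI gene number was an entry of the deposited table, and 8 of the 10 were found, among 16484 entries with a number-only gene ID and 113011 entries in all. For Col4a2 and Col6a1 no number-only entry was found, and their values were not analysed here. The data were RNA sequencing of urine from Sprague Dawley rats operated on at 8 weeks of age (day 56 after birth) and studied 2 weeks later. In the UUO group (unilateral ureteral obstruction) the right ureter was tied. The group labelled WT had the same surgery without ligation and is the sham group of the study. Urine of both groups was drawn from the ureter through a catheter. Each group had 1 library, and the number of rats behind a library is not given, so that every difference below describes this pair of libraries and has no replicate check.

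Collagens are the main structural proteins of the extracellular matrix. Their chains are wound around each other in sets, and a message for a single chain does not yet make a collagen. Fibrillar chains build the cross-striated fibrils of the scar, type IV chains build the sheet under every epithelium and endothelium, and type VI chains form beaded filaments between both. In the obstructed kidney, interstitial fibroblasts and pericytes are the known main producers of fibrillar collagen, while tubule cells, podocytes and endothelium also make basement membrane. Urine is a mixture of RNA from shed cells, vesicles and fluid, and in these bulk libraries fewer cells of a type and less RNA per cell cannot be told apart.

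Levels are given as FPKM, fragments scaled to the length of the transcript and to the mapped fragments of the library, and differences as log2(FPKM + 1) in UUO minus WT urine, a scale that understates changes of low genes. The table calls its conditions UrRf and Urc. UrRf was read as the UUO library, after the renal fibrosis of the series title, and all directions below would turn around if the names stood for the other groups. From the steps of the FPKM values the normalising total was estimated at 2116000 fragments in WT and 2448000 in UUO urine. The study reports more reads than this for its samples, most of them mapped, and the gap was not examined. On a transcript of 1000 bases a single fragment was then worth 0.542 FPKM in the WT library and 0.496 FPKM in the UUO library. Low values were nearly missing from the WT library: 231 number-only genes had an FPKM above 0 and under 1 there, against 2730 in UUO urine, and 8460 genes were listed at 0 in WT against 4476 in UUO urine. An exact 0 can be a failed estimate, since 21 of 81 ribosomal protein genes, which every cell uses, were listed at 0 in both libraries. Genes with FPKM of at least 1 in both libraries had a median log2 difference of -0.81 as deposited, so that most genes had the lower value in UUO urine. Rescaling UUO values to equal sums, to the median ratio of these genes or to the same 75th percentile multiplied them by 1.54, 1.86 or 1.95.

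Among the fibrillar chains, Col1a1 and Col3a1 had the highest values. Col1a1 encodes the major chain of type I collagen, the bulk of scar tissue (ID 29393, chromosome 10, 82563428 to 82580364 as listed in the table, in rn5 per the submitters' processing notes). Its FPKM was 9.20 in the WT and 13.6 in the UUO library. The ratio was 1.48 and the log2 difference 0.52, under the 2-fold limit (a log2 difference of 1) used here. Col3a1 encodes the chain of type III collagen, which forms fine fibrils beside type I (ID 84032, chromosome 9, 51689460 to 51725418). Its FPKM was 17.8 in the WT and 13.4 in the UUO library, which is 1.33-fold lower, at a log2 difference of -0.38. Col3a1 thus exceeded Col1a1 in WT urine with a ratio of 1.94, while in UUO urine the values were nearly equal, with a ratio of 0.985, or 1.04 with all entries of each locus summed. A ratio of 2 genes within a library does not move when the library is rescaled, whereas the sign of the Col3a1 difference did: it was 0.21 with equal sums, 0.47 with the median ratio and 0.53 with the 75th percentile.

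**Figure D1:**
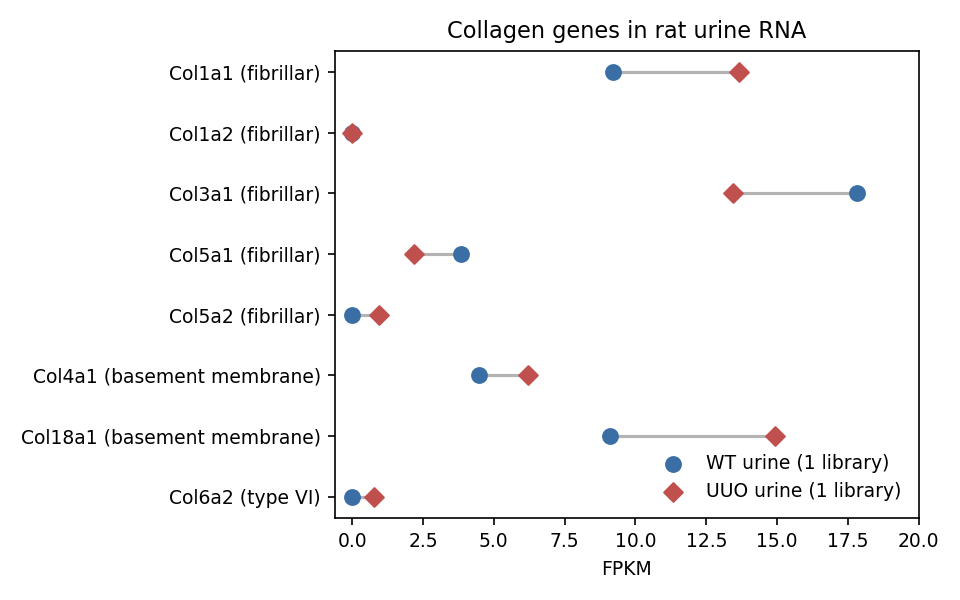
FPKM (x axis, linear) of the 8 collagen genes found in the table (y axis, with their class), as circles for the WT and diamonds for the UUO urine library, 1 library each, with no error bars because there are no replicates. Col1a1, Col4a1 and Col18a1 lie higher in UUO urine, Col3a1 and Col5a1 lie higher in WT urine, and Col1a2 is at 0 in both.

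Col1a2, the partner chain of Col1a1 in type I collagen, was listed at 0 in both libraries (ID 84352, chromosome 4, 29443177 to 29478105). It was 1 of 4294 number-only genes listed at 0 in both, and no other entry overlapped its locus. The fibrillar messages in this table therefore gave a value for the first type I chain and none for the second, and no ratio of the chains can be drawn.

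Type V collagen sits inside type I fibrils and sets their diameter. Col5a1 (ID 85490, chromosome 3, 11789102 to 11938220) had an FPKM of 3.83 in the WT and 2.20 in the UUO library, which is 1.74-fold lower, at a log2 difference of -0.60. With all entries of the locus summed the values were 4.76 and 4.44, and the log2 difference was -0.083. The sign of this difference moved with scaling too, to 0.073 with the median ratio and 0.13 with the 75th percentile. Its partner chain Col5a2 (ID 85250, chromosome 9, 51757495 to 51906272) was listed at 0 in the WT library and had an FPKM of 0.948 in UUO urine, just under the limit of 1 used for a comparison. Col5a2 lies 32076 bases beyond the listed end of Col3a1. These neighbours differed in that Col3a1 was among the clearly measured genes of both libraries and Col5a2 was not.

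The study searched promoters of its lncRNAs for the Smad3 motif CAGACA, the DNA word bound by a mediator of TGF-beta signalling. The same motif was searched here on both strands (also TGTCTG) in the RefSeq promoter windows of the GRCr8 build, 300 bases around each gene start with most of it upstream. The study searched a much longer stretch upstream of each lncRNA and took those with multiple motifs to its cell tests. Counts of genes with the motif here are therefore not comparable with its result. Windows were found for 7 of the 10 collagen genes, and 1 of these, Col5a2, held the motif, as did 21.1% of all 33469 windows. Its first base lies 103 bases before the Col5a2 start. The stretch is shown because Col5a2 is the only one of the 7 with the motif of the study, which is set in capitals (chr9:55090202-55090301, minus strand, GRCr8):
Col5a2 upstream: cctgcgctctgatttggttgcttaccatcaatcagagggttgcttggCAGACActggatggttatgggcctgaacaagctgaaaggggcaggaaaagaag
The match is a description of these letters and not a tested site, and at an FPKM of 0.948 against a listed 0 the gene gives no difference to set beside it.

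Among the 8 genes, both basement membrane genes had the higher value in UUO urine. Col4a3, a basement membrane chain outside the 8 that is given further on, went the other way, at 11.4 in the WT and 1.18 in the UUO library. Col18a1 encodes the core protein of a basement membrane proteoglycan, from whose end endostatin is cut (ID 85251, chromosome 20, 14388742 to 14495243). Its FPKM was 9.10 in the WT and 14.9 in the UUO library, a ratio of 1.64 and a log2 difference of 0.66, and it was the highest of the 8 genes in UUO urine. Col4a1, a chain of the type IV network that is present in all basement membranes (ID 290905, chromosome 16, 82987856 to 83097437), had an FPKM of 4.47 in the WT and 6.21 in the UUO library. Its ratio was 1.39 and its log2 difference 0.40. Neither gene passed 2-fold as deposited. All 3 rescalings raise UUO values, so they could not turn the direction of these genes and are no check on it.

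Col4a1 and Col4a2 are known to lie head to head and to be read outward from a shared control region. In GRCr8 the RefSeq starts of the pair are separated by 76 bases, of which 78.9% are G or C. The spacer is shown because it ties Col4a1, which has values here, to Col4a2, which has none (chr16:84885521-84885596, written on the plus strand, on which Col4a1 is read, GRCr8). The capitals mark a GC box, the motif GGGCGG, here in its reverse form CCGCCC:
Col4a2 to Col4a1 spacer: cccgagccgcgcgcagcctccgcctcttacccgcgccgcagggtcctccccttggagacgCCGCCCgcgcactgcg
Searched on both strands, this motif was in the windows of 4 of the 7 collagen genes (Col5a1, Col4a2, Col4a1 and Col18a1) and in 33.1% of all windows. The windows of Col4a1 and Col4a2 overlap and share this match. The TATA box letters TATAAA (or TTTATA) were in 1 of the 7 windows, that of Col1a2, and in 14.2% of all windows.

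Type VI collagen gave the least signal of the 3 classes. Col6a2, which joins Col6a1 and a larger chain in beaded filaments around cells (ID 361821, chromosome 20, 14931513 to 14959979), was listed at 0 in the WT library and had an FPKM of 0.753 in UUO urine. Of the 2730 number-only genes between 0 and 1 in UUO urine, 82.9% were listed at 0 in WT urine, and both Col5a2 and Col6a2 were among them. On an assumed transcript of 5000 bases, since lengths were not used here, 0.753 would be 8.89 fragments and 0.948 would be 11.2 fragments, and the limit that 3 fragments set in the WT library would be an FPKM of 0.291. These numbers cover counting error only, and reads copied by PCR were not told apart. Only 231 number-only genes had a WT value above 0 and under 1, so a listed 0 there does not show that a message was absent.

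Across the 8 genes, 5 had an FPKM of 1 or more in either library, and all of these 5 had it in both. Of the 5, 0 were 2-fold or more higher and 0 were 2-fold or more lower in UUO urine, with no test possible. Over the 9853 number-only genes with FPKM of 1 or more in either library, 25.7% were 2-fold or more higher and 36.5% 2-fold or more lower in UUO urine, 62.3% in either direction. Over the 7218 genes with FPKM of at least 1 in both libraries, the shares were 7.01% and 42.8%, or 49.8% in either direction, and 31.1% of these genes lay within the range of the 5 collagens, from -0.60 to 0.66. With the median ratio the split over number-only genes turned, with 39.8% higher and 15.6% lower. The 5 collagens had a median log2 difference of 0.40, beside -0.81 over the 7218 genes and -0.69 over the 3773 genes of like mean level. Each of the 5 lay above the median of these genes. The share of the 7218 genes with a lower difference was 57.7% for Col5a1, 64.4% for Col3a1, 84.3% for Col4a1, 86.8% for Col1a1 and 88.8% for Col18a1.

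**Figure D2:**
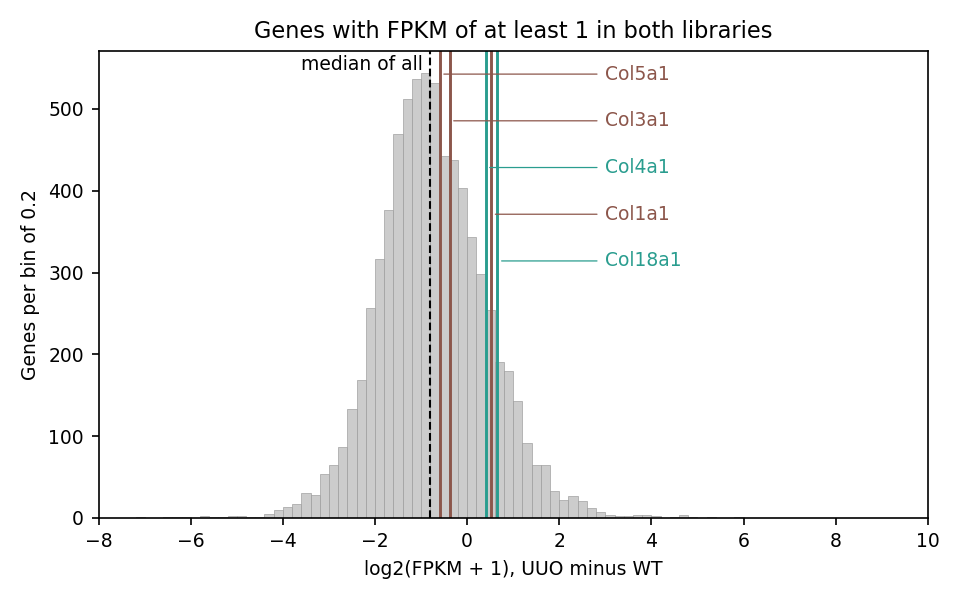
Number of genes (y axis, bins of 0.2) by their difference in log2(FPKM + 1), UUO minus WT urine (x axis), for the 7218 genes with FPKM of at least 1 in both libraries. The dashed line is their median at -0.81, and coloured lines mark fibrillar (brown) and basement membrane (green) collagens, which run from Col5a1 at -0.60 to Col18a1 at 0.66, all to the right of that median.

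Rescaling kept the order of the 5 genes and moved their position against 0. With the median ratio Col1a1 reached a log2 difference of 1.37, Col18a1 1.51 and Col4a1 1.20, all past 2-fold, while Col5a1 stayed at 0.073. Under this scaling 5 collagen genes counted as 2-fold or more higher, the other two being Col5a2 and Col6a2, which were listed at 0 in WT urine and passed the FPKM limit of 1 by the rescaling alone.

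**Figure D3:**
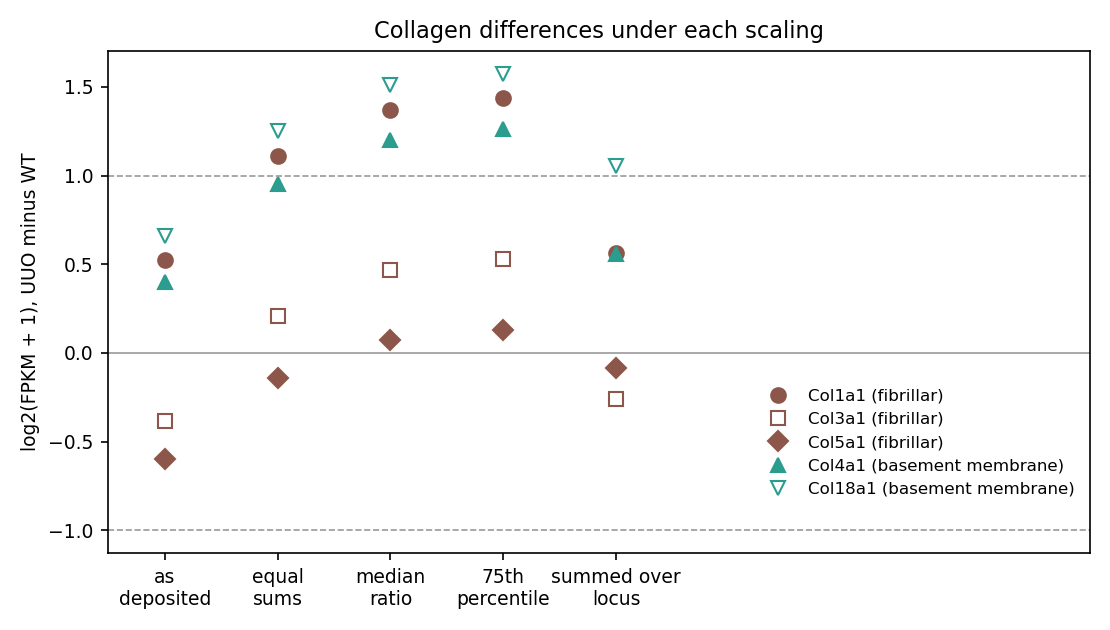
Difference in log2(FPKM + 1), UUO minus WT urine (y axis), of the 5 collagen genes with FPKM of at least 1 in both libraries, as deposited, under 3 rescalings of the UUO library, and with all entries of a locus summed (x axis). Dashed lines mark 2-fold. Col18a1, Col1a1 and Col4a1 lie above 0 in each column, which the rescalings could not change because all 3 raise UUO values. Col3a1 lies above 0 under each rescaling only, and Col5a1 under the median ratio and the 75th percentile only.

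The classes were compared within each library, where 1 scaling factor cancels. Fibrillar chains held 69.5% of the summed FPKM of the 8 genes in WT urine and 58.0% in UUO urine. Basement membrane chains held 30.5% and 40.6%, and the type VI chain held 0% and 1.45%. The ratio of fibrillar to basement membrane FPKM was 2.27 in the WT and 1.43 in the UUO library. The higher basement membrane share and the lower ratio in UUO urine rest on which chains are counted. With every found chain put in its class, a grouping chosen after the data were seen, basement membrane chains held 30.3% of all collagen FPKM in WT and 26.3% in UUO urine, since Col4a3 then enters the class. Fibrillar chains held 64.0% and 54.1%, and type VI chains 0% and 0.895%. Single genes shifted within the classes. Col3a1 alone held 40.1% of the sum of the 8 genes in WT urine and 25.8% in UUO urine, and Col1a1 20.7% and 26.2%. Col18a1 was 2.04 times Col4a1 in WT and 2.41 times in UUO urine, and Col1a1 was 2.06 and 2.20 times Col4a1, so that these 3 genes kept closer proportions to each other than to Col3a1. The median log2 difference was 0.53 for the 2 basement membrane genes and -0.38 for the 3 fibrillar genes with a value, or -0.083 for the latter with all entries of a locus summed. With so few genes and 1 library per group this contrast was not tested.

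**Figure D4:**
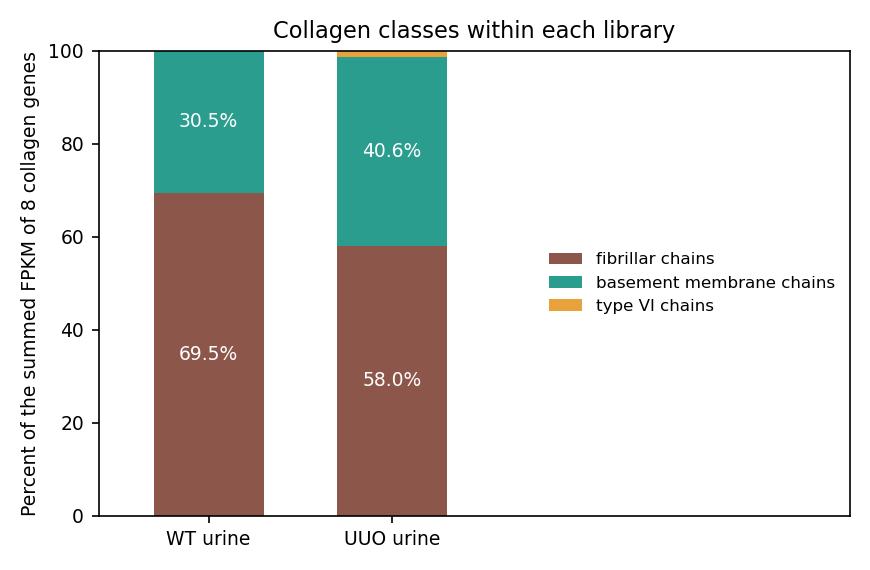
Percent of the summed FPKM of the 8 collagen genes (y axis) held by fibrillar, basement membrane and type VI chains in the WT and the UUO urine library (x axis, 1 library each). The fibrillar share is 69.5% in the WT and 58.0% in the UUO library, and the basement membrane share 30.5% and 40.6%.

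The collagen loci also carried entries other than the gene, of any kind, 50 in all at the 8 loci. Of these, 36 were above 0 in UUO urine and 4 in WT urine. Of all number-only genes, 51.3% were listed at 0 in WT and 27.2% in UUO urine. The like share over all entries without a gene number was not computed. The other entries share the reads of their locus with the gene. Their weight beside the gene differed between loci. At the Col1a1 locus 4 such entries summed to an FPKM of 0.428 in the UUO and 0 in the WT library, and at the Col4a1 locus 7 entries summed to 1.05 in the UUO and 0.134 in the WT library. The Col18a1 locus was different, with 11 entries that summed to 9.97 in the UUO and 2.36 in the WT library. The highest of them, NONRATG018118, had an FPKM of 7.57 in UUO urine and was listed at 0 in WT urine; it is named after its values were seen. With all entries of the locus summed, Col18a1 passed 2-fold, at a log2 difference of 1.06. In UUO urine the other entries summed to more than the gene itself at 3 loci. They came to 2.33 at the Col6a2 locus, 1.23 at the Col5a2 locus and 2.24 at the Col5a1 locus, against 0, 0 and 0.923 in WT urine.

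Of 44 collagen chains looked for, the 10 above included, 27 were found. In WT urine 10 of these were above 0 and in UUO urine 19. Of all number-only genes, 51.3% were listed at 0 in WT and 27.2% in UUO urine. Summed over the 27 chains, FPKM was 82.5 in the WT and 98.9 in the UUO library, or 0.0244% and 0.0365% of all number-only genes. The 8 genes above made up 53.8% of this sum in WT and 52.7% in UUO urine. Among the 19 other chains, 7 had FPKM of 1 or more in either library. Of these, 3 were 2-fold or more higher in UUO urine (2 of them listed at 0 in WT) and 2 were lower, that is 42.9% and 28.6%, beside 25.7% and 36.5% over all genes. The median log2 difference of the 4 chains with FPKM of at least 1 in both was 0.35. Col11a2, a minor fibrillar chain best known from cartilage, was higher than any of the 8 genes, at 18.8 in the WT and 21.5 in the UUO library. Col7a1, the chain of the anchoring fibrils below stratified epithelia, was 1.20 in the WT and 9.77 in the UUO library, a log2 difference of 2.29. Col17a1, a membrane collagen of hemidesmosomes, was 3.56 and 5.53. Col27a1, a fibrillar chain of cartilage, was 3.12 in the WT and 0.986 in the UUO library.

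The pair Col4a3 and Col4a4 encodes chains of the type IV network of the glomerular and distal tubular basement membrane, the network lost in Alport syndrome. Only Col4a3 of this pair had a value above 0 in both libraries. Col4a3 (ID 363265, chromosome 9, 88104519 to 88232032) had an FPKM of 11.4 in the WT and 1.18 in the UUO library, 9.64-fold lower in UUO urine. Col4a4 (ID 301562, chromosome 9, 88062425 to 88104157) was listed at 0 in the WT library and had an FPKM of 3.66 in UUO urine. The listed loci are 361 bases apart. Col4a3 kept its direction under all 3 rescalings, as did Col27a1, which was the lower in UUO urine. Unlike Col4a3, the ubiquitous Col4a1 was the higher in UUO urine.

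Enzymes and chaperones that make collagen were taken from a list of 28, of which 25 were found and 15 had FPKM of 1 or more in either library. By the 2-fold limit 7 (46.7%) were higher in UUO urine, 6 of them listed at 0 in WT, and 3 were lower, where all genes gave 25.7% and 36.5%. The median of the 6 genes with FPKM of at least 1 in both was -0.38. Serpinh1, the collagen-specific chaperone HSP47 of the endoplasmic reticulum, was listed at 0 in the WT library and had an FPKM of 7.01 in UUO urine. P3h1, a prolyl 3-hydroxylase, was listed at 0 and had 5.21. The most abundant member was P4hb, protein disulfide isomerase and a subunit of prolyl 4-hydroxylase with wide roles in folding other proteins, at 165 in the WT and 66.1 in the UUO library, a log2 difference of -1.31. Ppib, a cyclophilin of the same compartment, was 55.0 in the WT and 63.6 in the UUO library. P3h2, which hydroxylates type IV collagen, was 7.82 and 3.62. Adamts3, which trims procollagen II, was 1.97 in the WT library and is listed at 0.000293 in the UUO library, under the worth of 1 fragment there (0.0847 FPKM on 5000 bases) and so no measured level. P4hb and P3h2 had the lower value in UUO urine under all 3 rescalings too. The crosslinking enzyme Lox was listed at 0 in both libraries and is named here after its values were seen.

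Partners of type IV collagen in the basement membrane were 16 genes, of which 10 were found and 8 had FPKM of 1 or more in either library. By the 2-fold limit 3 (37.5%) were higher in UUO urine and 0 were lower, against shares of 25.7% and 36.5% among all genes. The median of the 7 genes with FPKM of at least 1 in both was 0.23. Lamb3, a laminin chain, was 12.0 in the WT and 20.7 in the UUO library, within 2-fold. Agrn, a basement membrane proteoglycan, was 8.63 and 19.7, a log2 difference of 1.10. Sparc, a collagen-binding glycoprotein, was listed at 0 in the WT library and had an FPKM of 9.07 in UUO urine. The chain Lama5 was 7.06 and 5.72, and Nid2, a linker of laminin and type IV collagen, was 1.84 and 1.60. Both of the latter were lower in UUO urine as deposited and higher under all 3 rescalings.

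Partners of collagen fibrils were 11 genes, of which 10 were found and 6 had FPKM of 1 or more in either library. By the 2-fold limit 4 (66.7%) were higher in UUO urine, 2 of them listed at 0 in WT, and 1 (16.7%) was lower, with 25.7% and 36.5% among all genes. The median of the 2 genes with FPKM of at least 1 in both was 1.50. Thbs1, thrombospondin 1, was 2.17 in the WT and 19.1 in the UUO library, a log2 difference of 2.67. Fn1, the fibronectin on which fibrils are laid down, was 0.921 and 6.33, a log2 difference of 1.93. Dcn, the fibril-binding decorin, was listed at 0 in the WT library and had an FPKM of 4.05 in UUO urine. Bgn, its relative biglycan, was 4.73 and 6.25. Fbn1, the fibrillin of elastic microfibrils, was 1.50 in the WT and 0.128 in the UUO library, and remained the lower under all 3 rescalings. Thbs1 and Fn1 thus differed more than any of the 5 measured collagens did.

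Over the 5 lists of other chains and partners, with the receptors given further on, 40 of 72 found genes had FPKM of 1 or more in either library. Of these, 18 were 2-fold or more higher, 11 of them listed at 0 in WT, and 6 were lower, beside background shares of 25.7% and 36.5%. With the median ratio the split was 33 higher and 3 lower, and the background shares were 39.8% and 15.6%. These counts are not out of the 40, because the FPKM limit was applied again after rescaling. The 33 include genes listed at 0 in WT urine that passed the limit by the rescaling alone and so counted as higher.

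**Figure D5:**
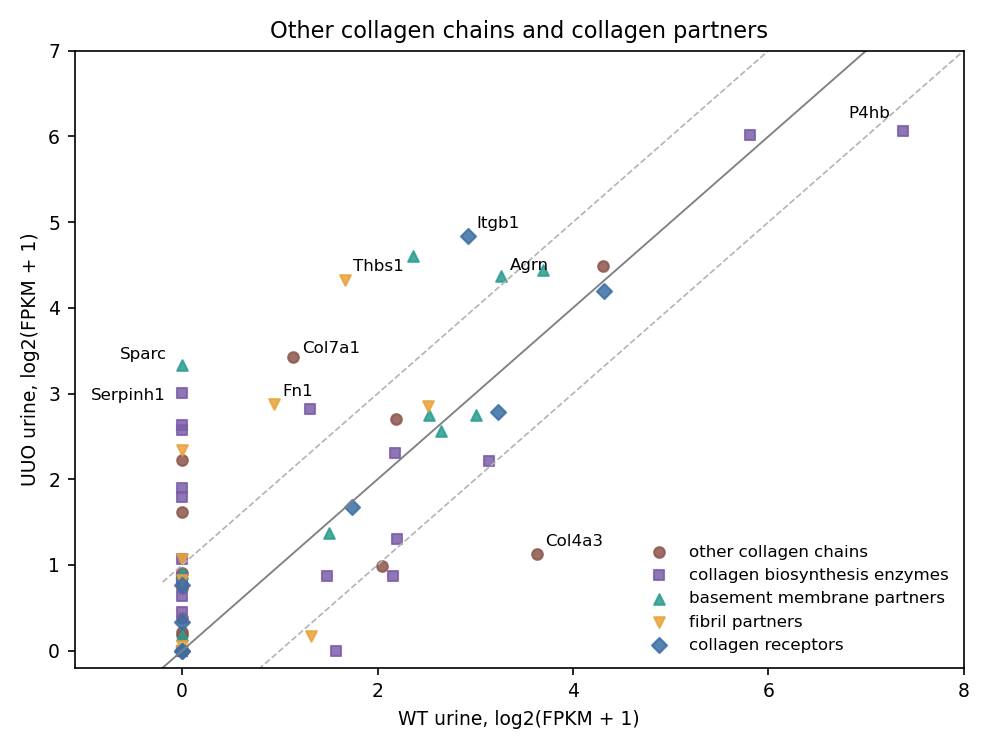
log2(FPKM + 1) in WT (x axis) and UUO urine (y axis) of the 72 genes found in 5 lists: other collagen chains, biosynthesis enzymes, basement membrane partners, fibril partners and receptors. The solid line is equality and the dashed lines mark 2-fold; the column at 0 on the x axis holds genes listed at 0 in WT urine, such as Sparc and Serpinh1, and Col4a3 lies far below the line at 11.4 against 1.18 FPKM.

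Markers of cell types that could bring collagen messages into urine were set beside these values. Counts of markers above 0 are to be read beside all number-only genes, of which 51.3% were listed at 0 in WT and 27.2% in UUO urine. Of 6 fibroblast and pericyte markers, 1 was above 0 in the WT and 5 in the UUO library, and their summed FPKM was 2.66 and 14.9. In UUO urine nearly all of this came from Acta2, at 6.37, and Tagln, at 6.89, which smooth muscle also makes and which were both listed at 0 in WT. Pdgfra was the marker seen in WT urine, at 2.66, and had 1.48 in UUO urine. Thy1 was listed at 0 in both libraries, and Pdgfrb and Lum were listed at 0 in WT and had 0.111 and 0.0377 in UUO urine. The Lum value is under the worth of 1 fragment there (0.0847 FPKM on 5000 bases) and so no measured level. Of 6 endothelial markers, Cdh5, Emcn and Tek were listed at 0 in both, and the sum was 1.80 in the WT and 3.40 in the UUO library. Urothelial markers were far higher, with a sum of 806 in the WT and 1112 in the UUO library over 6 genes. They did not move together, since Krt5 was listed at 0 in WT and had 51.8 in UUO urine and Upk2 was 82.4 and 169, while Upk1b was 216 and 136 and Krt20 26.4 and 12.5. The 8 tubule markers were above 0 in both and summed to 209 and 123. They did not move together either. With the median ratio Lrp2, Slc34a1 and Cubn stayed past 2-fold lower, at log2 differences of -1.71, -1.42 and -1.19. Aqp1, Aqp2, Slc12a1, Slc12a3 and Umod were within 2-fold as deposited. With the median ratio these were higher in UUO urine, from 0.33 for Slc12a1 to 0.98 for Slc12a3. All marker sums here are as deposited, and rescaled sums were not computed. The 5 podocyte markers summed to 19.1 and 49.2. Most of the podocyte sum was Synpo, at 13.2 and 39.0, while Wt1 was 3.96 and 1.39. Of 5 leukocyte markers, 1 was above 0 in the WT and 5 in the UUO library, with sums of 2.05 and 15.1. The marker with a value in both, Cd14, was the lower in UUO urine as deposited, at 2.05 and 1.31. The other 4 were listed at 0 in WT urine. The part of these cell types in the collagen values was not tested.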

How the data were processed

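The deposited table is a Cuffdiff output. It holds 1 FPKM value per entry and library, computed by the authors with a normalising total that is not given. The methods of the study say that ribosomal RNA was removed and that strand-specific libraries were made, as described for kidney. The submitters' processing notes name Bowtie2 2.0.6, TopHat2 2.0.9, Cufflinks 2.1.1, Cuffdiff 2.1.1 and rn5. Loci are given as listed, a merged region of overlapping entries. The authors' own fold changes, test statistics, p-values and q-values were not used. The names UrRf and Urc are not sample titles. They were read as UUO and WT, a reading that the headings of the study's published urine lists share. For urine RNA the methods name a column kit and the labels Trizol.

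Symbols came from an NCBI RefSeq table (GRCr8), which matched 16329 of 16484 number-only IDs. FPKM was compared as log2(FPKM + 1) at a limit of 1 in size, among genes with FPKM of 1 or more in either library. With 1 library per group no p-value was computed. Depth was estimated by fitting FPKM of assembled entries that were alone at a locus of 400 to 1200 bases as whole fragments. Within 0.1 of a whole number were 93.5% of 186 WT values and 99.3% of 3530 UUO values. On an assumed length of 5000 bases, the 5 compared collagens would hold 39.5 to 184 fragments in WT and 26.0 to 176 in UUO urine. The fit and the calls were tested on simulated data. The collagen genes and gene lists were chosen with earlier results of these data known. Named were all collagen members, and of each other list at most the 4 with the highest FPKM and the 2 with the greatest and the 2 with the least difference; 1 gene of this rule is not reported here. No gene is named for a similar pattern, since 2 libraries give each gene a single ratio. Alternatives were other pseudocounts, scalings, limits and summing over loci. Python 3.11.15, numpy 2.4.6 and pandas 2.3.3 were used.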

Additional observations from a re-analysis of the deposited data

How the results depend on the processing

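No paired analysis was possible because there was only 1 library of each kind. A log2 difference was taken as unchanged if neither its sign nor its side of 1 moved, and a count or share if it came within 1.5 times of the reported value, which held for 52 of 92 recomputed values. Pseudocounts of 0.1 and 10 changed none of the 5 collagen differences in this sense. Scaling mattered most. With equal sums the log2 differences were 1.11 for Col1a1, 0.21 for Col3a1 and 1.25 for Col18a1, with medians of 0.21 for fibrillar and 1.10 for basement membrane chains, and 4 collagen genes were 2-fold higher. With the median ratio they were 1.37 for Col1a1, 0.47 for Col3a1, 0.073 for Col5a1, 1.20 for Col4a1 and 1.51 for Col18a1, with medians of 1.20 over the 5 genes, 0.47 for fibrillar and 1.35 for basement membrane chains, and 5 genes were 2-fold higher. With the 75th percentile they were 1.43, 0.53, 0.13, 1.26 and 1.57 in the same order, with medians of 1.26, 0.53 and 1.42, and again 5 genes. Each rescaling raises UUO values by 1 factor. The counts under all 3 include Col5a2 and Col6a2, which were listed at 0 in WT urine and passed the FPKM limit by rescaling alone. Over all genes 39.8% were 2-fold or more higher with the median ratio. That share was not computed for equal sums or the 75th percentile. FPKM summed over the locus gave 1.06 for Col18a1, 3 genes 2-fold higher (Col18a1, and Col5a2 and Col6a2, listed at 0 in WT) and a type VI share of 4.36% in UUO urine.

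As shares of all annotated collagen chains, the fibrillar genes among the 8 held 37.4% in the WT and 30.5% in the UUO library, the basement membrane genes 16.4% and 21.4%, and the type VI gene 0.761% in UUO urine, since more chains enter the sum. With every found chain in its class, which was added after the data were seen, basement membrane chains held 26.3% and type VI chains 0.895% in UUO urine. In the lists of other chains and partners, a 4-fold limit left 9 higher and 1 lower, FPKM of at least 5 left 10 and 2, and the median ratio gave 33 and 3. The 33 also include genes listed at 0 in WT urine that passed the FPKM limit by rescaling alone. Over all genes the median ratio gave 39.8% higher and 15.6% lower, and shares at the stricter limits were not computed. Depth limits what a 0 in WT urine can show, and no replicate bears on any of these values.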

Other observations

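Receptors that bind collagen were measured beside the chains. Of 10 such genes 8 were found, and 4 had FPKM of 1 or more in either library, all 4 in both. By the 2-fold limit 1 (25.0%) was higher in UUO urine and 0 were lower, beside 25.7% and 36.5% over all genes. Over genes with FPKM of at least 1 in both libraries the shares were 7.01% and 42.8%. Ddr1, a tyrosine kinase receptor for collagen that is typical of epithelia, had an FPKM of 18.9 in the WT and 17.4 in the UUO library, a log2 difference of -0.12. Its relative Ddr2, known from connective tissue cells, was listed at 0 in WT and had 0.701 in UUO urine, and is named here after its values were seen. Itgb1, the common beta chain of the collagen-binding integrins, was 6.58 in the WT and 27.6 in the UUO library, a log2 difference of 1.92, and was the only one of the 4 past 2-fold. Its collagen-binding partner Itga1 was 2.34 and 2.18, a log2 difference of -0.068. Mrc2, an endocytic receptor that takes up cleaved collagen, was 8.39 and 5.91, a log2 difference of -0.44. The median of the 4 was -0.092, beside -0.81 over all genes with FPKM of at least 1 in both libraries. Ddr1, Itga1 and Mrc2 had the lower value in UUO urine as deposited and the higher one under all 3 rescalings.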
